A study of Mus musculus with 13 samples.

Results

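The circadian clock of mammals is a loop of transcription factors, and H3K4me3 was measured here at the promoters of 10 of its genes in mouse hippocampus. The genes were chosen by name: Arntl, Clock, Per1, Per2, Per3, Cry1, Cry2, Nr1d1, Nr1d2 and Dbp. All 10 were present, each with 1 region, out of 14523 gene names and 14006 regions in the deposited table. They comprise 2 activators, 7 repressors and 1 output gene.

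H3K4me3 is a histone mark found at active promoters. The study removed methionine synthase, encoded by Mtr, from the central nervous system of C57BL/6 mice by recombining floxed exons with a Cre recombinase. The Thy-1.2 promoter, which is used to express transgenes in neurons, drove the Cre. The groups were wild type given vehicle (DMSO-PEG, n = 4), wild type given SRT2104 (n = 3), knockout with a label of no treatment (n = 2) and knockout given SRT2104 (n = 4). Mice received SRT2104, a compound that activates the deacetylase SIRT1, in 9 gavages of 50 mg/kg between day 15 and day 36. The genotype labels are MLML-WT for wild type and TC;MLML_MTR-KO for knockout, and MLML, which the labels do not explain, stands in both. No vehicle is named for the untreated knockouts. Where they are compared with wild-type vehicle, gavage and genotype cannot be told apart. Where they are compared with treated knockouts, SRT2104 and gavage cannot be told apart. The difference between the SRT2104 effects of the genotypes carries the same limit. The labels give no hour of sampling and no light cycle, nor whether libraries come from separate mice. The p-values thus cover only the spread among the libraries at hand, which may be technical.

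In the core loop, the proteins of Arntl (also called BMAL1) and Clock bind E-box sequences and switch on the Per and Cry genes, whose proteins then inhibit that pair. The same pair drives Nr1d1 and Nr1d2, which encode the REV-ERB repressors and in turn silence Arntl, and Dbp, an output factor that acts on D-box sequences. In rhythmic tissues Arntl transcripts therefore peak at about the opposite time of day to those of Dbp, Nr1d1 and the Per genes, and SIRT1 is known to act on this loop through its NAD-dependent deacetylase activity.

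The promoter sequences of these genes were searched for the motifs through which the loop is known to act. They are RefSeq windows of build GRCm38.p6, from 250 bases before the start of transcription to 50 bases after it. The H3K4me3 regions are placed on build mm9, so the overlap of a window with its region was not examined. Of the 10 genes, 9 had an entry, with 13 windows in all, and Per2 had none. Searched on both strands were the E-box CACGTG, the E-prime box CACGTT, the D-box TTATGTAA and the AGGTCA motif read by REV-ERB and ROR receptors. These 4 motifs do not overlap each other in the windows printed. The E-box was in 2 of the 9 genes, the E-prime box in 3, the D-box in 1 and AGGTCA in 4. Of all 26742 genes in the table, 8.11% have a window with the E-box, 5.48% with the E-prime box, 1.10% with the D-box and 18.1% with AGGTCA. Counted over all 32544 windows these shares are 7.17%, 4.71%, 0.931% and 16.2%. The window of Dbp held none of the 4 motifs. Shown are windows of the activator Arntl and of 4 repressors, which hold all 4 motifs between them. Capitals mark a motif, read on either strand.
Arntl (window 2, chr7:113207261-113207560, plus strand): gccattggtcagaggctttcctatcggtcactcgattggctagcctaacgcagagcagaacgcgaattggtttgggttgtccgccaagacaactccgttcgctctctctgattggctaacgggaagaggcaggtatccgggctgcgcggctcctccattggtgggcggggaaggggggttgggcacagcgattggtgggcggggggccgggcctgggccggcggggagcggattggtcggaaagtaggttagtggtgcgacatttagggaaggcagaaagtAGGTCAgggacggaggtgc
Per1 (window 1, chr11:69098699-69098998, plus strand): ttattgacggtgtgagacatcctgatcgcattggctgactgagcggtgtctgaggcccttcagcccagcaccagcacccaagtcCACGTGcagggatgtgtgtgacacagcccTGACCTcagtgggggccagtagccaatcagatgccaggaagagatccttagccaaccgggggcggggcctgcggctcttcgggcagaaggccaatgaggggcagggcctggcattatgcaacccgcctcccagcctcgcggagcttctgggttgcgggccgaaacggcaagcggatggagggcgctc
Per3 (chr4:151044616-151044915, minus strand): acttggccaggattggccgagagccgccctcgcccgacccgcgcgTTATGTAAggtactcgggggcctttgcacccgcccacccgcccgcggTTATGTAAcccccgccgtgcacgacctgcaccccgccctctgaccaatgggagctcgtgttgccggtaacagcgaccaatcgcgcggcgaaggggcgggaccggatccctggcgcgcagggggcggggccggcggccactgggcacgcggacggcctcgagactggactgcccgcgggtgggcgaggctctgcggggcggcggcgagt
Cry1 (chr10:85185005-85185304, minus strand): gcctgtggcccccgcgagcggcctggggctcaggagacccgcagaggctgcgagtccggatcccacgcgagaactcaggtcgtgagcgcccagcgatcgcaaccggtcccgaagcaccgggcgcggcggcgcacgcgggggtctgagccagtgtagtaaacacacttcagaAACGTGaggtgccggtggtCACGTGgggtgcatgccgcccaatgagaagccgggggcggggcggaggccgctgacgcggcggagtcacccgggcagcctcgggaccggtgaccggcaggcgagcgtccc
Nr1d1 (chr11:98775328-98775627, minus strand): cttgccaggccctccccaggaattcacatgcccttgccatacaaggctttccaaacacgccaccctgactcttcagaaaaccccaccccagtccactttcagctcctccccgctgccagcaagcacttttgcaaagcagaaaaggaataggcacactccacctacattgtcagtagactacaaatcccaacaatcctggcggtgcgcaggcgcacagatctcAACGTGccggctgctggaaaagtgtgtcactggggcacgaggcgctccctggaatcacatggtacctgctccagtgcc

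Counted from the start of transcription, the E-box of Per1 began at -166 and that of Cry1 at -60. Cry1 also held an E-prime box at -79, and Nr1d1 held one at -28. Both D-boxes of Per3 lay upstream, at -205 and -158. The AGGTCA motif of Arntl lay downstream of the start, at 32, and that of Per1 upstream, at -137. A match describes letters in these windows and is not evidence of binding.

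The library of fewest reads inside regions, 3963196, was wild-type SRT2104 replicate 1, and the deepest, with 9009109, was knockout SRT2104 replicate 2. Values are the deposited signal, meaning reads over a size factor of the library. This scaling left whole-library shifts in place: the median deviation of all regions from their means ran from -0.077 on the log2 scale in wild-type SRT2104 replicate 1 to 0.095 in untreated knockout replicate 1. Wild-type vehicle replicate 3 also stood apart from its group, with a median deviation of 0.049. By the sex letter in the column names, the untreated knockouts were all female and the 4 vehicle libraries all male. Sex and genotype thus cannot be told apart between those groups. Wild-type SRT2104 replicate 1 was the only female among the wild-type libraries. The Mtr promoter region was not placed relative to the deleted exons, so it does not check the knockout. It held 486 to 493 in wild-type vehicle and 466 to 507 in wild-type SRT2104. In untreated knockouts it held 427 to 510, and in treated knockouts 438 to 493. All 10 hippocampal excitatory neuron markers, among them Prox1 and Neurod2, had a region.

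The clock promoters had a higher median H3K4me3 level than all regions and varied about as much. Their median level over 13 libraries was 916, against 526 for all regions. Per kilobase of region the medians were 441 and 360. The coefficient of variation over the 13 libraries had a median of 5.84% for the 10 genes and 6.37% for all regions. It ran from 3.55% at Dbp to 8.96% at Nr1d2. Per kilobase, Nr1d1 and Clock were highest at 611 and 596. Arntl, Dbp and Cry1 followed at 481, 470 and 469, a smaller gap than their variation over libraries (4.67%, 3.55% and 7.99%). Nr1d2 and Per2 had 414 and 404 per kilobase, and Per1, Cry2 and Per3 were lowest at 386, 380 and 375. Per3, Cry2 and Per1 differed from each other by less than their own variation over libraries, which was 5.27%, 5.18% and 8.21%. Cry2 had the longest of the 10 regions, 3193 bp, and Nr1d1 the shortest, 1175 bp. Counting error, as the root mean square over the 13 libraries, was between 2.85% for Clock and 4.05% for Per1. It covers counting only, since PCR copies cannot be told apart.

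**Figure D1:**
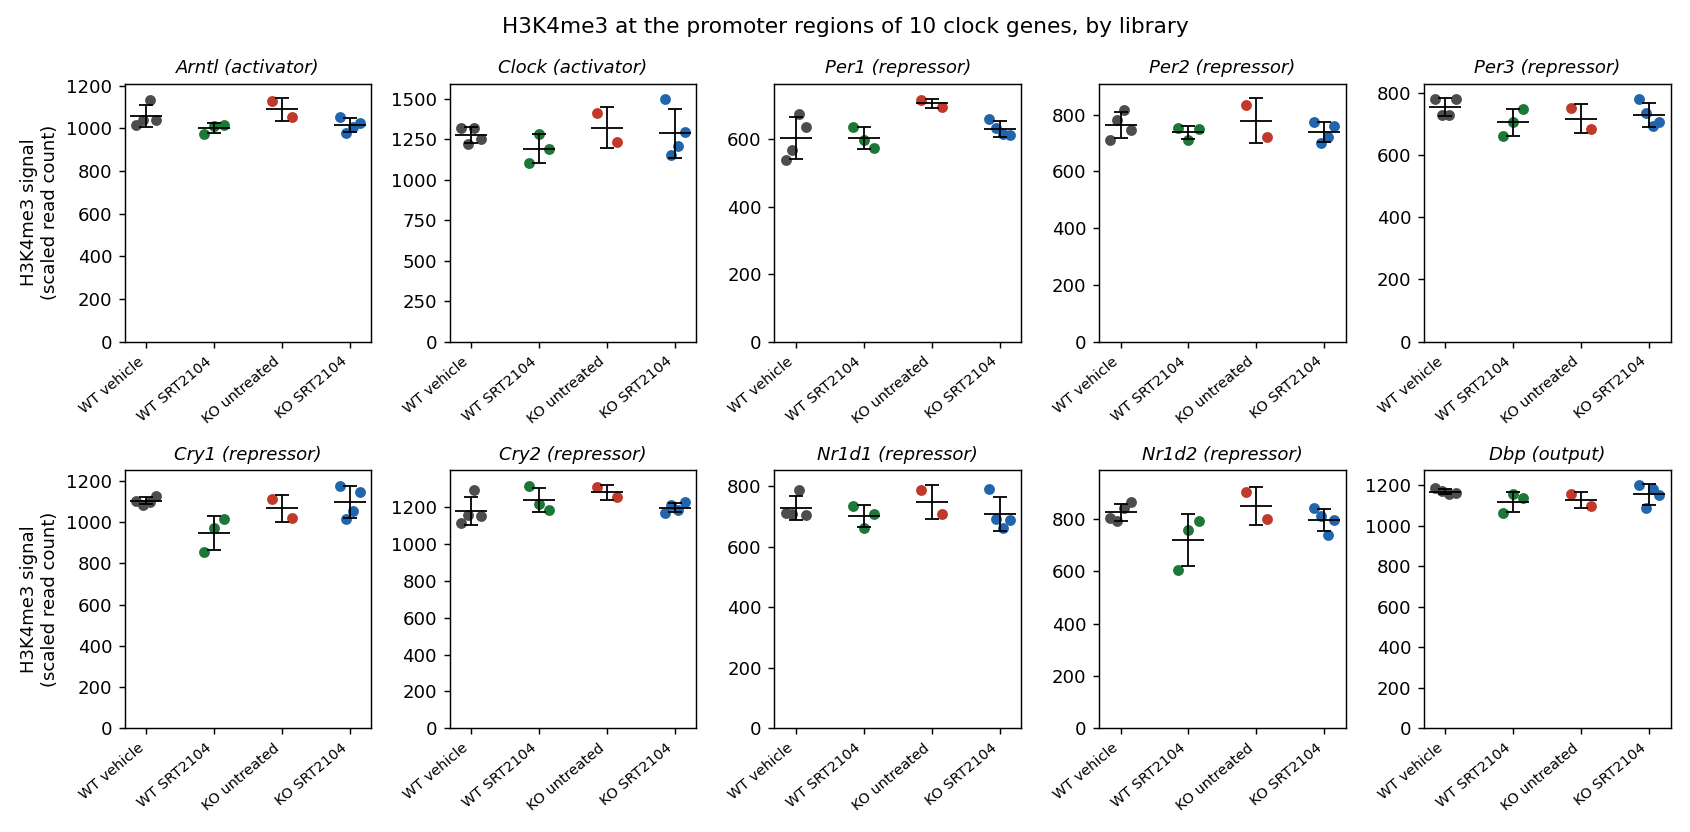
H3K4me3 signal (scaled read count, vertical axis from 0) at each clock gene by group, with 1 point per library and a black bar for the mean ± SD. All 4 groups overlap at Clock, Per2, Per3 and Nr1d1, while both untreated knockouts lie above all 4 wild-type vehicle libraries at Per1, at 696 and 715.

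Of the activators, Arntl encodes the partner that gives the loop its rhythm, and its region was at chr7:120350194-120352349 in mm9 coordinates as deposited. Arntl held 1017, 1040, 1132 and 1040 in wild-type vehicle, 973, 1012 and 1015 in wild-type SRT2104, 1127 and 1052 in untreated knockouts, and 1054, 976, 1006 and 1025 in treated knockouts. The wild-type SRT2104 libraries all lay below the vehicle libraries and the untreated knockouts, and overlapped the treated knockouts. The margin to vehicle was narrow, 1015 against 1017. The log2 difference for SRT2104 in wild type was -0.079 (SE 0.053, limma adjusted p = 0.471), and it was -0.0037 with cyclic loess scaling and -0.027 with TMM scaling. Without wild-type vehicle replicate 3 it was -0.046. Clock encodes the partner of BMAL1, and its region was at chr5:76732473-76734600. Clock held 1317, 1222, 1319 and 1253 in wild-type vehicle, 1104, 1285 and 1187 in wild-type SRT2104, 1411 and 1233 in untreated knockouts, and 1498, 1152, 1207 and 1294 in treated knockouts. All groups overlapped at Clock, and the treated knockouts spread most, with the highest value of all 13 libraries in replicate 1.

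Per1 encodes a repressor that also responds quickly to light and to glucocorticoids, and it gave the largest difference for the knockout. Its region was at chr11:68912360-68913983. Per1 held 538, 567, 673 and 635 in wild-type vehicle, 637, 597 and 573 in wild-type SRT2104, 715 and 696 in untreated knockouts, and 661, 633, 614 and 612 in treated knockouts. Both untreated knockouts were above every library of the other groups. The group means were 603 ± 61.8 (SD, n = 4) in wild-type vehicle and 706 ± 13.4 (SD, n = 2) in untreated knockouts. That log2 difference of 0.23 (SE 0.073) ranked 180 of 14006 regions by p and did not pass after adjustment (limma adjusted p = 0.319). Without wild-type vehicle replicate 3, the highest Per1 library of its group, the log2 difference was 0.29 with a limma adjusted p of 0.0171, and Per1 was then 1 of 564 regions called. In the other alternatives its limma, edgeR or DESeq2 adjusted p stayed above 0.05. The untreated knockouts were all female and the vehicle libraries all male. With sex as a covariate the Per1 difference was 0.16, the smallest of the alternatives. No clock gene was then under an unadjusted limma p of 0.05 for the knockout. In the authors' deposited table Per1 had a log2 fold change of 0.22, a p-value of 0.00808 and an adjusted p of 0.392. Treated knockouts, at 630 ± 22.8 (SD, n = 4), lay below untreated ones by -0.16 on the log2 scale (SE 0.073, limma adjusted p = 0.379), or -0.10 with cyclic loess scaling.

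Per2 and Per3 encode the other Period repressors, and neither separated the groups. The Per2 region was at chr1:93354683-93356545. Per2 held 710, 781, 817 and 745 in wild-type vehicle, 752, 711 and 748 in wild-type SRT2104, 834 and 721 in untreated knockouts, and 773, 700, 722 and 761 in treated knockouts. All 4 groups overlapped at Per2, and the highest value was in an untreated knockout. The Per3 region was at chr4:150417521-150419466. Per3 held 782, 730, 730 and 780 in wild-type vehicle, 662, 708 and 748 in wild-type SRT2104, 751 and 686 in untreated knockouts, and 782, 736, 693 and 707 in treated knockouts. Per3 was the Period gene with a negative log2 difference for the knockout, -0.073 (SE 0.065, limma adjusted p = 0.796), which ran from -0.14 without untreated knockout replicate 1 to -0.0072 without replicate 2.

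Cry1 encodes the cryptochrome that gives the strongest repression of CLOCK and BMAL1, and it gave the largest difference for SRT2104 in wild type. Its region was at chr10:84646272-84648532. Cry1 held 1103, 1084, 1099 and 1124 in wild-type vehicle, 857, 972 and 1017 in wild-type SRT2104, 1112 and 1019 in untreated knockouts, and 1175, 1014, 1055 and 1147 in treated knockouts. All 3 wild-type SRT2104 libraries were below all 4 vehicle libraries, and the treated knockouts overlapped both. The means were 1102 ± 16.6 (SD, n = 4) for vehicle and 949 ± 82.4 (SD, n = 3) for SRT2104. The log2 difference of -0.22 (SE 0.062) ranked 58 of 14006 regions and did not pass (limma adjusted p = 0.332). Without wild-type SRT2104 replicate 1, the library of fewest reads and the only wild-type female, it was -0.15 (limma adjusted p = 0.952). Cyclic loess scaling gave -0.14 (limma adjusted p = 0.386). Between treated knockouts and treated wild type the log2 difference was 0.21 (SE 0.062, limma adjusted p = 0.780), or 0.14 without that same library (limma adjusted p = 1.00). The difference between the SRT2104 effects of the 2 genotypes was 0.26 (SE 0.094, limma adjusted p = 0.497).

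Cry2 encodes the other cryptochrome, and its values ran in another direction from those of Cry1. Its region was at chr2:92271500-92274693. Cry2 held 1113, 1159, 1292 and 1151 in wild-type vehicle, 1312, 1217 and 1183 in wild-type SRT2104, 1310 and 1252 in untreated knockouts, and 1168, 1209, 1186 and 1227 in treated knockouts. Wild-type SRT2104 replicate 1 was the highest of all 13 libraries at Cry2 and the lowest at Cry1. Untreated knockouts lay above the treated knockouts without overlap, with a log2 difference of -0.097 for treatment (SE 0.064, limma adjusted p = 0.511). It was -0.031 with cyclic loess scaling, -0.047 with TMM scaling and -0.065 without untreated knockout replicate 1.

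Nr1d1 and Nr1d2 encode REV-ERB alpha and beta, the repressors of Arntl. The Nr1d1 region was at chr11:98635433-98636608. Nr1d1 held 711, 708, 786 and 704 in wild-type vehicle, 733, 661 and 707 in wild-type SRT2104, 787 and 707 in untreated knockouts, and 791, 690, 661 and 689 in treated knockouts. All groups overlapped at Nr1d1, and in the vehicle and treated knockout groups a single library stood above the rest. The Nr1d2 region was at chr14:19070294-19072220. Nr1d2 held 806, 793, 843 and 865 in wild-type vehicle, 606, 759 and 794 in wild-type SRT2104, 902 and 799 in untreated knockouts, and 842, 811, 739 and 797 in treated knockouts. The lowest Nr1d2 value was again in wild-type SRT2104 replicate 1, the only wild-type female. The log2 difference for SRT2104 in wild type was -0.21 (SE 0.075, limma adjusted p = 0.332), and without that library it was -0.089 (limma adjusted p = 0.952). On the recovered reads it was -0.12 with edgeR and -0.13 with DESeq2.

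Dbp, the output factor, was the steadiest of the 10 genes, with a coefficient of variation of 3.55% over the 13 libraries. Its region was at chr7:52960520-52962959. Dbp held 1188, 1171, 1157 and 1165 in wild-type vehicle, 1065, 1155 and 1137 in wild-type SRT2104, 1155 and 1100 in untreated knockouts, and 1202, 1086, 1182 and 1154 in treated knockouts. The vehicle libraries lay above those of the treated wild type and above the untreated knockouts, each by a narrow margin (1157 against 1155). The log2 difference was -0.065 for SRT2104 (SE 0.052, limma adjusted p = 0.543) and -0.053 for the knockout (SE 0.059, limma adjusted p = 0.843). The upper bounds of the 95% intervals were 0.043 and 0.069. With TMM scaling the differences were -0.013 and -0.086, and with cyclic loess scaling 0.013 and -0.10. Without wild-type SRT2104 replicate 1 the SRT2104 difference was -0.030, and the knockout difference was -0.089 without untreated knockout replicate 1 and -0.018 without replicate 2.

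Across the comparisons, no clock gene was called. For the knockout without SRT2104, 0 of the 10 genes passed the limma adjusted p of 0.05, where 1 of 14006 regions (0.00714%) did. At an unadjusted p under 0.05 there was 1 clock gene, Per1, with 9.14% of all regions. Libraries did not overlap at Per1, higher, and Dbp, lower by a narrow margin, which is 2 of 10 against 13.2% of all regions. The median log2 difference was 0.039 over the clock genes and 0.031 over all regions, and 7 of the 10 were above 0.

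For SRT2104 in knockouts, 0 clock genes and 0 regions (0%) were called by limma. Unadjusted, Per1 was the single clock gene under 0.05, with 12.5% of all regions. Per1 and Cry2 did not overlap, both lower in treated libraries, against 21.7% of all regions. The medians were -0.075 for the clock genes and -0.053 for all regions.

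For SRT2104 in wild type, 0 clock genes were called, with 0.00714% of regions called by limma. Unadjusted, Cry1 and Nr1d2 were under 0.05, with 13.4% of all regions. Arntl, Cry1 and Dbp did not overlap, all lower in treated libraries, against 14.4% of all regions. At Arntl and Dbp the margin was narrow (1015 against 1017, and 1155 against 1157). The medians were -0.072 and -0.052. Treated knockouts against treated wild type gave 0 clock genes called (0.00714% of regions), Cry1 as the single gene under an unadjusted 0.05 (6.2% of regions), and no gene without overlap (6.8% of regions). Treated knockouts against wild-type vehicle gave 0 clock genes called (0.00714% of regions), none under an unadjusted 0.05 (2.16% of regions), and none without overlap (2.76% of regions). The largest log2 difference in that last comparison was 0.067 at Per1, with a 95% interval from -0.056 to 0.19. It ran from 0.014 without wild-type vehicle replicate 1 to 0.12 without replicate 3. For the difference between the SRT2104 effects of the genotypes, 0 clock genes and 0 regions (0%) were called, and Cry1 was under an unadjusted 0.05 with 7.88% of regions.

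These comparisons share groups, so their values are not independent of each other. With sex as a covariate, female minus male differences at the clock genes ran from -0.16 at Nr1d2 to 0.082 at Nr1d1, and none passed adjustment (limma adjusted p = 1.00 at Nr1d2). With TMM scaling of the recovered reads the median over all regions was -0.0011 for the knockout without SRT2104 and 0.00027 for SRT2104 in wild type, and the shares of regions below 0 went from 34.6% to 50.6% and from 71.5% to 49.8%. The directions of small differences, such as those of Per2, therefore depend on the scaling.

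**Figure D2:**
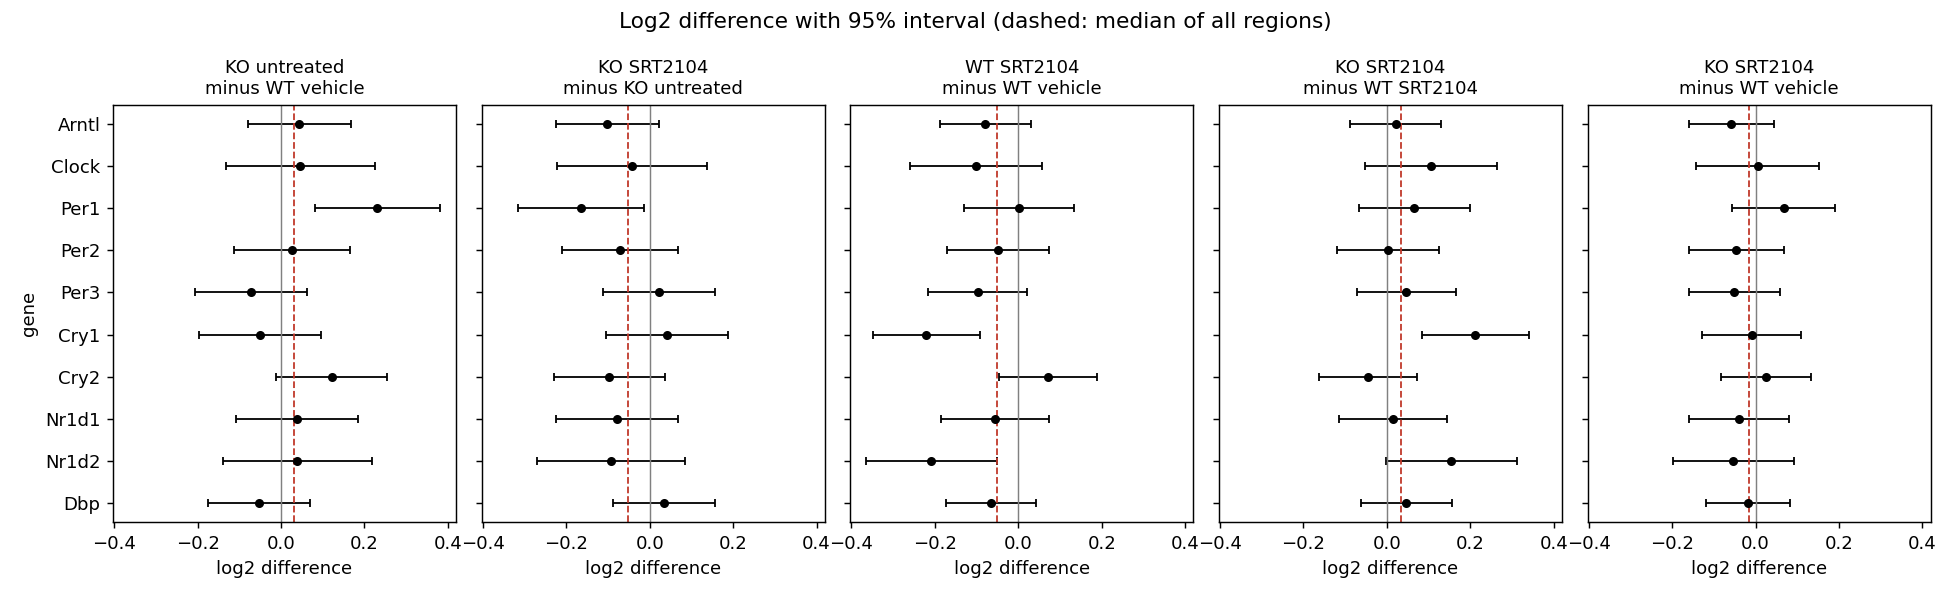
Log2 difference (horizontal axis) of each clock gene in the 5 comparisons, as point and 95% interval from limma, with the median of all 14006 regions as a dashed line. Per1 lies highest for the knockout at 0.23, Cry1 lowest for SRT2104 in wild type at -0.22, and most intervals span 0.

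In rhythmic tissues Arntl transcripts peak at about the opposite time of day to those of Nr1d1 and the Per genes. The libraries were therefore examined for opposite movement of the activator and repressor arms, as different sampling hours could give. The arms also hold Clock, Cry1, Cry2 and Nr1d2, whose peak times were not considered, so the arm means need not oppose each other. On the authors' scaling the arms moved together, and with the rest of the table. The mean log2 deviations of Arntl and Clock and of the 7 repressors had the same sign in 11 of 13 libraries. Over the libraries these means had an r of 0.87. The mean of all 10 clock genes had an r of 0.94 with the median of all regions. The arm means were not computed on another scaling. Untreated knockout replicate 1 was highest in both, at 0.14 for activators and 0.13 for repressors, where the median of all regions stood at 0.095. Wild-type vehicle replicate 3 had 0.095 and 0.085, with all regions at 0.049. Knockout SRT2104 replicate 1 had 0.14 and 0.079, with all regions at 0.021. Wild-type SRT2104 replicate 1 was lowest, at -0.14 and -0.093, with all regions at -0.077. Activators minus repressors ran from -0.086 in knockout SRT2104 replicate 2 to 0.065 in wild-type SRT2104 replicate 2. The sampling hour is not given in the sources used here, and its part in these values was not tested.

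**Figure D3:**
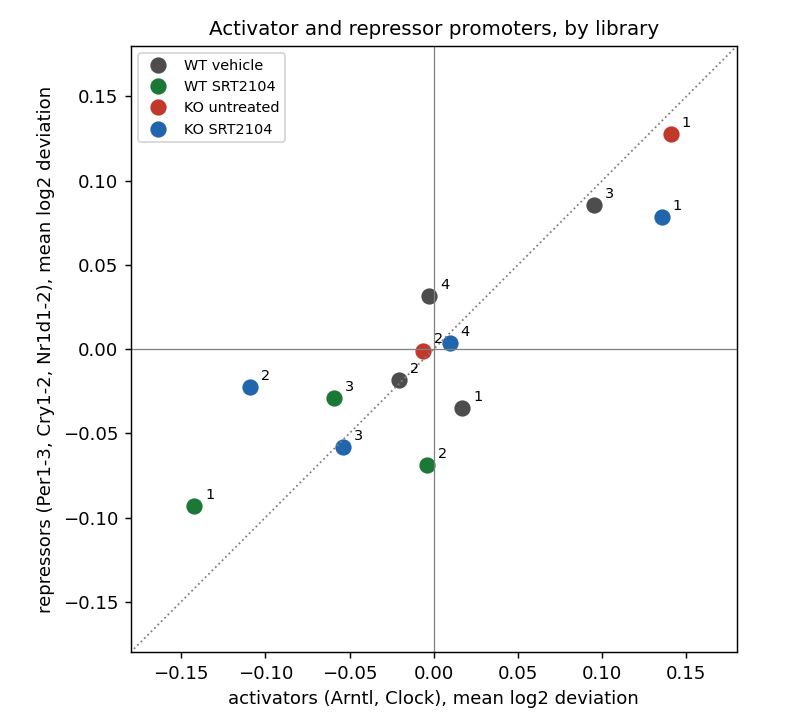
Mean log2 deviation of the activators (horizontal axis) and of the repressors (vertical axis) from their 13-library means, with 1 point per library numbered by replicate and coloured by group. Points lie along the dotted line of equal deviation, from wild-type SRT2104 replicate 1 at -0.14 and -0.093 to untreated knockout replicate 1 at 0.14 and 0.13. Values keep the whole-library shifts of the authors' scaling.

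**Figure D4:**
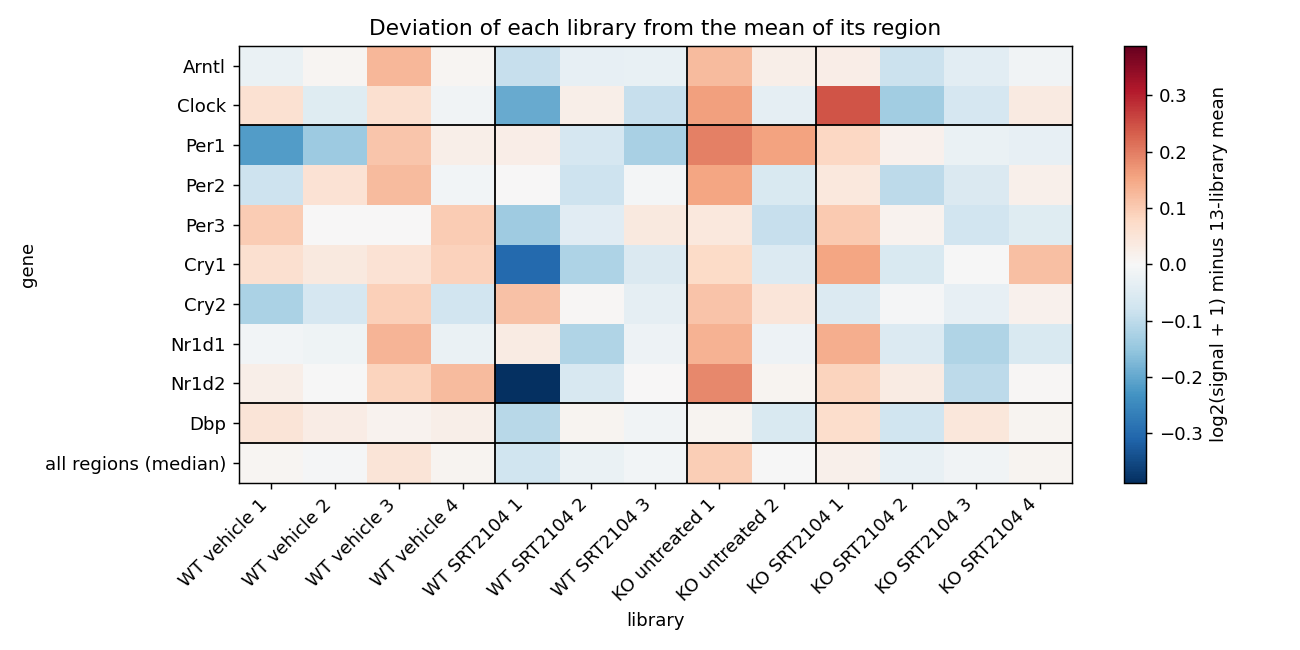
Log2 deviation of each library (columns) from the 13-library mean of each clock gene (rows), with lines between roles and groups, and the median deviation of all regions in the bottom row. All 10 genes are above their means in untreated knockout replicate 1 and wild-type vehicle replicate 3, and Nr1d2 and Cry1 are lowest in wild-type SRT2104 replicate 1.

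Gene by gene the picture was the same on the authors' scaling. Of the 45 pairs of clock genes, 38 had a positive Pearson correlation over the 13 libraries, with a median r of 0.46. Of the 16 pairs of an activator with a repressor or Dbp, 15 were positive, with a median r of 0.57. A permutation test with 100000 resamples, adjusted over the 45 pairs, called 12 pairs, all positive, by Pearson's r. By Spearman's rho it called none, and the smallest adjusted p was 0.0814. How often pairs of other regions would be called was not examined. By r with Arntl, the called partners Per2, Nr1d1, Clock and Nr1d2 ranked 1095, 3066, 3391 and 3411 of the 14005 other regions. Taken as deviations from group means, 37 of 45 pairs were positive and none was called by a permutation test within groups (smallest adjusted p = 0.145, with 13 pairs under an unadjusted 0.05).

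Arntl and its repressor-arm target Per2 had the highest Pearson's r of the activator-repressor pairs over all 13 libraries, though not by rho or without the farthest 2 libraries. Their r was 0.80 (permutation p = 0.00125, adjusted 0.0178) and their rho 0.65 (permutation p = 0.0182), and without the 2 libraries farthest from the median of Arntl the r was 0.43. Clock and Cry1 had an r of 0.75 (permutation p = 0.00344, adjusted 0.0258) and a rho of 0.76 (permutation p = 0.00362), with an r of 0.52 without the farthest 2. Arntl and Nr1d1, the pair whose transcripts are known to oppose each other, had an r of 0.70 (permutation p = 0.00916, adjusted 0.0412) and a rho of 0.59 (permutation p = 0.0361), with 0.32 without the farthest 2. Their r was 0.49 with TMM scaling and 0.30 with cyclic loess scaling, and no pair of clock genes was called with either. Among repressors, Cry1 and Nr1d2 had the highest r, 0.83 (permutation p = 0.00198, adjusted 0.0178), with a rho of 0.64 (permutation p = 0.0232) and an r of 0.46 without the farthest 2.

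The negative pairs mostly involved Cry2. With Per3 its r was -0.59 (permutation p = 0.0326, adjusted 0.0916) and its rho -0.59 (permutation p = 0.0350), with -0.42 without the farthest 2 libraries. With Dbp its r was -0.57 (permutation p = 0.0399, adjusted 0.0998) and its rho -0.64 (permutation p = 0.0206), with -0.31 without the farthest 2. Neither pair was called.

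All 10 clock genes also correlated positively with most of the table. Arntl did so with 76.5% of all other regions (median r 0.44), Clock with 72.3% (median r 0.32) and Cry2, the lowest, with 55.0% (median r 0.045). After TMM scaling, which centres each library on most of its regions, 25 of 45 pairs were positive, the median r of the 16 activator pairs was 0.23, and no pair was called (smallest adjusted permutation p = 0.0571, at Cry1 and Cry2 with an r of -0.82; 10 pairs were under an unadjusted 0.05). After cyclic loess scaling 20 of 45 were positive, 8 of the 16 activator pairs were, and no pair was called (smallest adjusted permutation p = 0.0909, with 7 pairs under an unadjusted 0.05). The sign of Arntl with Clock itself went from 0.68 to -0.26 under cyclic loess scaling.

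**Figure D5:**
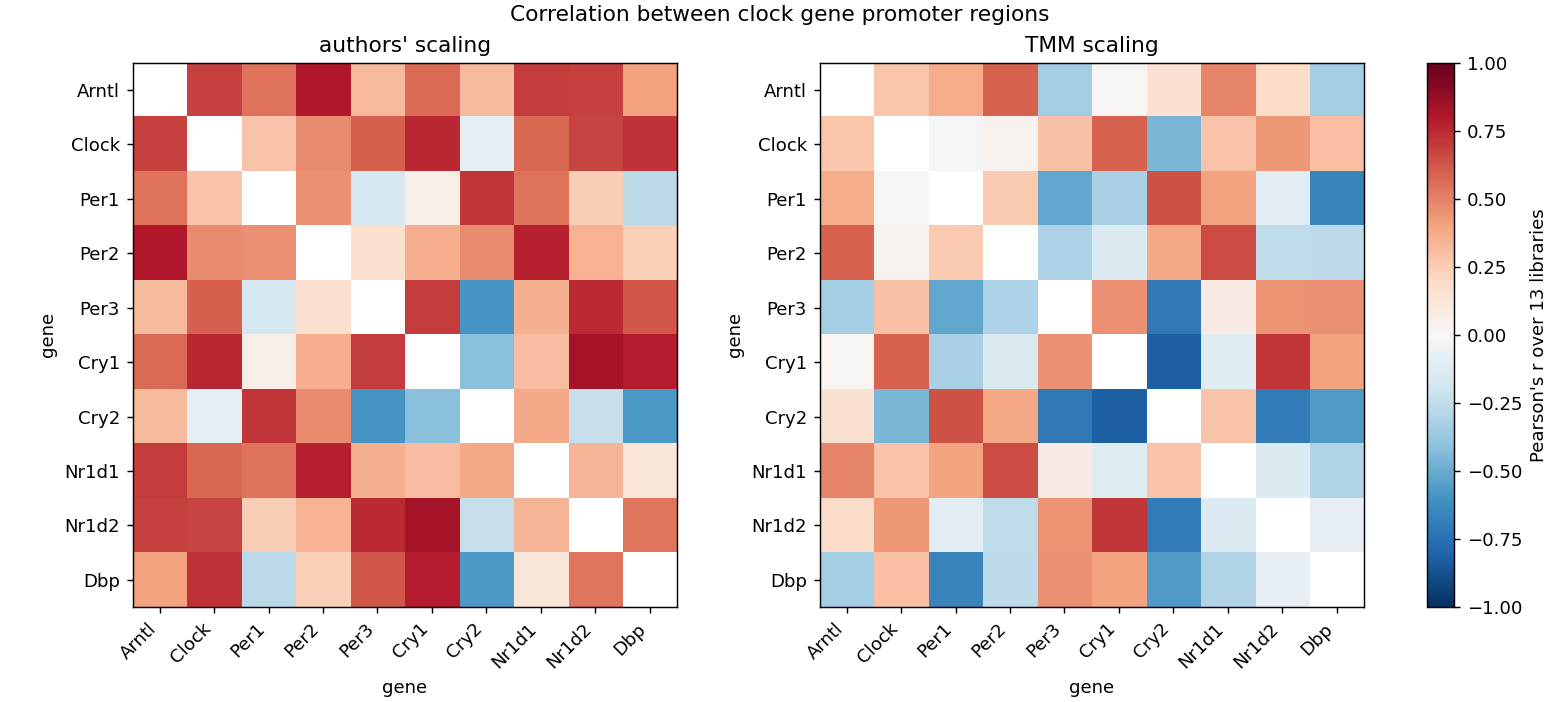
Pearson's r over 13 libraries for each pair of clock genes (colour, -1 to 1), with the authors' scaling on the left and TMM scaling of the recovered reads on the right. Under the authors' scaling 38 of 45 pairs are positive, under TMM scaling 25 are, and Cry1 with Cry2 goes from -0.42 to -0.82.

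The regions most like Arntl over the 13 libraries were not clock genes. The 5 with the highest Pearson r were Eif4a1 (0.96), Gorasp2 (0.95), Naa25 (0.95), Rps19 (0.95) and Eaf2 (0.95). Per2 was the clock gene nearest to Arntl, at rank 1095 of the 14005 other regions. The 5 most like Dbp were Cdyl (0.91), Fgfrl1 (0.91), Mecom (0.90), Ankrd44 (0.89) and S1pr2 (0.89), and Cry1 was nearest among clock genes at rank 247.

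No gene of the wider clock was called either. Of 30 other clock genes, 28 had a region, and 0 were called by limma in any of the comparisons. Under an unadjusted 0.05 were 3 of 28 for the knockout (9.14% of all regions), 2 for SRT2104 in knockouts (12.5%) and 2 for SRT2104 in wild type (13.4%). There were 2 for treated knockouts against treated wild type (6.2%), 1 against wild-type vehicle (2.16%) and 1 for the difference between genotypes (7.88%). Npas2, the stand-in for Clock in the forebrain, held 917 ± 78.6 (SD, n = 4) in wild-type vehicle and 1023 ± 93.4 (SD, n = 2) in untreated knockouts, a log2 difference of 0.16 (limma adjusted p = 0.475). Csnk1d, the kinase that marks PER proteins, had 0.13 for the knockout (limma adjusted p = 0.485) and -0.13 for SRT2104 in knockouts (limma adjusted p = 0.384). Rorb, a nuclear receptor, had -0.14 and 0.14 in those comparisons (limma adjusted p = 0.544 and 0.397). For SRT2104 in wild type, Timeless had -0.19 (limma adjusted p = 0.332), Wee1, a cell cycle kinase under clock control, -0.14 (limma adjusted p = 0.347) and Bhlhe41, a repressor at E-boxes, -0.11 (limma adjusted p = 0.376).

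Among treated libraries, knockout minus wild type was -0.13 at Ppargc1a, a coactivator, 0.12 at Bhlhe41 and 0.13 at Nfil3, a repressor at D-boxes (limma adjusted p = 0.780 for each). Treated knockouts minus wild-type vehicle was -0.14 at Timeless, -0.072 at Nampt, the enzyme that makes NAD from nicotinamide, and 0.14 at Prok2, a secreted clock signal (limma adjusted p = 1.00 for each). For the difference between genotypes, Nfil3 had 0.21, Wee1 0.16 and Rorb 0.16 (limma adjusted p = 0.633, 0.694 and 0.713). The D-box factors Tef and Hlf, relatives of Dbp, had 0.077 and 0.091 for the knockout (limma adjusted p = 0.734 and 0.746), and Bhlhe40, the relative of Bhlhe41, had 0.13 (limma adjusted p = 0.614).

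Genes that glucocorticoids induce, such as Fkbp5 and Sgk1, were set beside Per1, since that hormone is known to act on Per1. All 12 had a region and 0 were called by limma in any comparison (for the knockout, 3 of 12 under an unadjusted 0.05, with 9.14% of all regions). Their summed signal was 9690 to 9961 in untreated knockouts and 8939 to 9259 in wild-type vehicle. It was 8448 to 8926 in wild-type SRT2104 and 8756 to 9239 in treated knockouts. The untreated knockouts were highest, as they also were in the summed astrocyte and vascular markers given below. For the knockout, the median log2 difference of the glucocorticoid-induced genes was 0.069, against 0.031 for all regions. Single genes ran from -0.090 to 0.49, with 9 of 12 above 0, while 34.6% of all regions lay below 0. The sums keep the whole-library shifts of the authors' scaling. Of the activity-induced genes, such as Fos and Arc, all 16 had a region and 0 were called by limma (for the knockout, 4 of 16 under an unadjusted 0.05, with the same 9.14% of all regions). Their sums were 13994 to 14187 in untreated knockouts and 13220 to 14423 in wild-type vehicle, which overlapped. Dusp1 stands in both lists.

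Summed markers of some other cells also stood apart in the untreated knockouts. Astrocyte markers (8 of 8 with a region) summed to 2330 to 2355 there, against 1999 to 2187 in wild-type vehicle, 2087 to 2241 in wild-type SRT2104 and 1970 to 2138 in treated knockouts. Vascular markers (6 of 6) summed to 1001 to 1124, against 801 to 939, 873 to 940 and 807 to 920. Oligodendrocyte markers (11 of 12) had a median log2 difference of -0.33 for the knockout, with sums of 2380 to 3180 against 2557 to 3416 in wild-type vehicle. Choroid plexus and ependyma markers (4 of 7) summed to 759 to 888 against 835 to 1191, markers of neighbouring regions (7 of 7) to 3132 to 3274 against 3318 to 3485, and microglia markers (4 of 6) to 115 to 119 against 82.6 to 124. No marker with a region was at 0 in a group, and 0 of these markers were called by limma. Under an unadjusted limma p of 0.05 for the knockout were 5 of 8 astrocyte, 5 of 11 oligodendrocyte and 2 of 6 vascular markers. The counts were 2 of 4 for choroid plexus and ependyma, 3 of 7 for neighbouring regions and 0 of 4 for microglia. The share of all regions was 9.14%. Rorb stands both among the markers of neighbouring regions and among the other clock genes. Fewer cells of a type and a weaker mark per cell cannot be told apart in bulk tissue. The part of cell makeup and of glucocorticoids in the Per1 values was not tested.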

How the data were processed

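H3K4me3 ChIP-seq (chromatin immunoprecipitation with sequencing) gave 13 libraries. The deposited signal is reads per region over a size factor of the library, on build mm9. Per the submitters' processing notes the tools were Bowtie2, SAMtools, bedtools, MACS2 and DESeq2, with neither version nor role stated. The authors' deposited table also holds a log2 fold change, a p-value and an adjusted p-value of knockout against wild type. Its 17212 lines hold 14006 distinct regions, each listed with the promoter windows of 2500 bp it overlaps. In every library 100% of values equalled whole reads times a constant, to within 0.001 reads, so reads were recovered for edgeR and DESeq2 as alternatives. How regions were called, and with what input, is not given in the sources used here.

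The test was limma (trend and robust options) on log2(signal + 1), fitted to all 13 libraries with 1 coefficient per group, with two-sided Benjamini-Hochberg adjustment over all 14006 regions and a threshold of 0.05. A filter of 10 in at least 2 libraries removed 0 regions. On this scale the fold change of a low region comes out too small. Correlations used 100000 permutations, two-sided. Alternatives were TMM and cyclic loess scaling, edgeR, DESeq2, a pseudocount of 5, no filter, a filter of 100, sex and the replicate number as covariates, only the groups compared, and each library left out. Scripts were tested on simulated data. The members and the lists were chosen with earlier results of these data known. All members were named, with the other clock genes of the 3 smallest p per comparison and the direct clock factors. The software was Python 3.11.15 with pandas 2.3.3, scipy 1.17.1 and matplotlib 3.10.9, and R 4.3.3 with DESeq2 1.42.0, edgeR 4.0.16 and limma 3.58.1.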

Additional observations from a re-analysis of the deposited data

Results flagged for a closer look

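Nr1d1 in wild-type vehicle had a library far from the other 3 of its group: replicate 3 held 786, while the rest held 711, 708 and 704. It was the 1 such case among 20 groups of 4 libraries examined, and chance flags about 1 in 20. All 10 clock genes were above their 13-library means in that library, where the median deviation of all regions was 0.049 on the log2 scale.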

How the results depend on the processing

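Over 23 alternatives, 1283 of 1370 clock gene differences kept their sign and their side of the threshold. The sign changed in 86, in 30 of the 60 differences, none larger than 0.12 on the log2 scale by the authors' scaling, and none called. The 1 new call was Per1 for the knockout without SRT2104, without wild-type vehicle replicate 3. Below, the comparisons are the knockout (untreated knockout minus wild-type vehicle), treatment in knockouts, treatment in wild type, genotype under treatment (both treated), treated knockouts minus vehicle, and the interaction (the difference between the treatment effects). The cause of the changes was not tested.

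Regions called for the knockout numbered 0 with TMM scaling, edgeR, cyclic loess scaling or sex, 25 with DESeq2 and 47 with only the groups compared. For treatment in knockouts they numbered 29 with DESeq2 and 363 with only the groups compared. For treatment in wild type they numbered 0 with TMM, edgeR or loess, and 3 with only the groups compared. For genotype under treatment they numbered 0 with TMM, edgeR or loess. For treated knockouts minus vehicle they numbered 0 with only the groups compared, and for the interaction 13 with DESeq2. No clock gene was among them. The loess median over clock genes was -0.012 for treatment in knockouts and 0.0029 in wild type. Correlated pairs called numbered 0 with TMM and 0 with loess, where r became -0.26 for Arntl with Clock, -0.29 for Arntl with Nr1d2 and -0.0075 for Clock with Dbp.

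The following log2 differences changed sign. With TMM scaling they were -0.0072 (Per2, knockout), 0.0083 (Clock, treatment in knockouts), 0.0033 (Per2, treatment in wild type), 0.0086 (Cry1, treated knockouts minus vehicle) and, for genotype under treatment, -0.014 (Arntl), -0.032 (Per2) and -0.021 (Nr1d1). With edgeR they were -0.0054 (Per2, knockout), 0.0041 (Clock, treatment in knockouts), 0.0056 (Cry1, treated knockouts minus vehicle) and, for genotype under treatment, -0.015 (Arntl), -0.028 (Per2), -0.00056 (Per3) and -0.016 (Nr1d1). With DESeq2 they were -0.0042 (Per2, knockout), 0.0075 (Clock, treatment in knockouts), 0.0072 (Cry1, treated knockouts minus vehicle) and, for genotype under treatment, -0.015 (Arntl), -0.029 (Per2) and -0.016 (Nr1d1). With loess the knockout gave -0.0040 (Arntl), -0.0040 (Clock), -0.017 (Per2), -0.0036 (Nr1d1) and -0.0041 (Nr1d2). With loess treatment gave 0.025 (Clock) in knockouts and 0.017 (Per2), 0.0095 (Nr1d1) and 0.013 (Dbp) in wild type. With loess genotype under treatment gave -0.036 (Arntl), -0.042 (Per2), -0.029 (Nr1d1) and -0.014 (Dbp), and treated knockouts minus vehicle 0.0090 (Cry1). With sex the knockout gave -0.013 (Per2), 0.0078 (Cry1) and -0.044 (Nr1d1), treatment in wild type -0.021 (Per1), and genotype under treatment -0.0034 (Per2). With sex treated knockouts minus vehicle gave -0.0047 (Clock), 0.020 (Cry1) and 0.026 (Nr1d2), and the interaction 0.0097 (Per2), 0.044 (Nr1d1) and -0.017 (Nr1d2).

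Leaving out each library gave these ranges. Regions called ran from 0 to 564 for the knockout, 0 to 205 for treatment in knockouts, 0 to 3 in wild type, 0 to 1 for genotype under treatment and 0 to 272 for the interaction, and 564, 205 and 272 each came without wild-type vehicle replicate 3. Clock genes called for the knockout ran from 0 to 1. Medians over clock genes ran from -0.049 to 0.12 for the knockout, from -0.15 to 0.016 for treatment in knockouts and from -0.055 to 0.11 for the interaction, each end set by leaving out an untreated knockout, so that the lone one is assumed to vary like the other groups. Correlated pairs called ran from 5 to 12, with 5 without wild-type SRT2104 replicate 1 or untreated knockout replicate 1, 6 without wild-type vehicle replicate 1 and 8 without wild-type vehicle replicate 2. Without untreated knockout replicate 1, Per3 with Cry2 was called with an r of -0.76 (adjusted permutation p = 0.0396). For the knockout, ranges that cross 0 were -0.0063 to 0.094 (Arntl), -0.050 to 0.14 (Clock), -0.079 to 0.13 (Per2), -0.11 to 0.013 (Cry1), -0.039 to 0.12 (Nr1d1) and -0.048 to 0.13 (Nr1d2). For treatment in knockouts they were -0.14 to 0.055 (Clock), -0.18 to 0.033 (Per2), -0.044 to 0.088 (Per3), -0.021 to 0.10 (Cry1) and -0.00029 to 0.071 (Dbp). For treatment in wild type the range was -0.051 to 0.056 (Per1). For genotype under treatment they were -0.023 to 0.029 (Per2) and -0.040 to 0.048 (Nr1d1). For treated knockouts minus vehicle they were -0.070 to 0.056 (Clock), -0.042 to 0.028 (Cry1), -0.0019 to 0.070 (Cry2) and -0.037 to 0.011 (Dbp). For the interaction they were -0.073 to 0.027 (Arntl), -0.037 to 0.16 (Clock), -0.13 to 0.082 (Per2), -0.10 to 0.054 (Nr1d1) and -0.0037 to 0.20 (Nr1d2).

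The replicate numbers share no stated batch. Of 16 same-numbered pairs of libraries, 3 had deviations that correlated above 0.1 (range -0.29 to 0.19), and 2 of 13 libraries correlated best with one of their own number. With the replicate block, 2 regions were called for the knockout and 0 for treatment in wild type, no clock gene was called, the Nr1d1 interaction was 0.0028, and called pairs numbered 14. The new pairs were Per3 with Cry2, with an r of -0.65 (adjusted permutation p = 0.0436), and Clock with Nr1d2, with an r of 0.78 (adjusted permutation p = 0.0173). The block changed no other call of a clock gene or pair. Sex as a covariate also called 14 pairs, with Clock and Nr1d2 among them (r = 0.72, adjusted permutation p = 0.0357). That pair was called too without wild-type vehicle replicate 4, knockout SRT2104 replicate 1 or knockout SRT2104 replicate 2. For block and sex, the permutations did not allow for the coefficients removed from the values. Depth was lowest in wild-type SRT2104 replicate 1, which set the lowest Cry1 and Nr1d2 values. It was also the only wild-type female, so depth and sex cannot be told apart there.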
